A study of Mus musculus with 13 samples.

Results

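The ADAMTS proteases are secreted zinc metalloproteases that carry thrombospondin repeats and cut proteins of the extracellular matrix. Described here are the genes Adamts1, Adamts2, Adamts4, Adamts5, Adamts7, Adamts8, Adamts9, Adamts10, Adamts12 and Adamts15 in injured mouse muscle. They were taken from the expression table by gene symbol, and all 10 of the 10 genes looked for were among its 14911 genes. The table held 18 ADAMTS protease genes in all, and the other 8 are given beside the listed ones.

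Female C57BL/6 mice were injected in the hamstring with cardiotoxin, a snake venom toxin that kills muscle fibres, at 0.32 mg/kg. They then received a daily intraperitoneal injection of saline, or of dexamethasone at 10 mg/kg, a synthetic hormone that activates the glucocorticoid receptor. The whole hamstring was taken at day 4, and polyadenylated RNA from each mouse made 1 library, with 4 saline mice (numbered 1, 2, 3 and 5) and 9 dexamethasone mice. Every group carried the cardiotoxin injury, so no value of uninjured muscle enters the comparison. Heterotopic ossification, which is bone forming within muscle, was recorded by the submitters in every dexamethasone mouse, and the 1 saline mouse that had it was left out of the comparison. A change that belongs to the drug and one that belongs to ossification cannot be told apart here.

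Libraries held 25531487 to 34942266 reads over these genes, 25531487 to 32537345 in saline and 28021111 to 34942266 in dexamethasone. All 12 defining markers of muscle fibres were detected at high levels in every library, and the members had from 84 reads (Adamts8) to 3408 reads (Adamts2) in a library. Libraries of a group were each from a separate mouse, so their spread holds both biological and technical differences.

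ADAMTS enzymes are made as inactive precursors, are trimmed by furin-like convertases, and act outside the cell or at its surface. Adamts1, Adamts4, Adamts5, Adamts8, Adamts9 and Adamts15 belong to the branch that cuts the large proteoglycans aggrecan and versican. Adamts2 removes the amino-terminal propeptide of fibrillar procollagens, Adamts7 and Adamts12 cut cartilage oligomeric matrix protein, and Adamts10 binds fibrillin microfibrils. In skeletal muscle the family is known mainly for clearing the versican-rich matrix that surrounds myoblasts before they fuse.

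All members share a catalytic site in which 3 histidines hold the zinc ion and a glutamate takes part in cutting the peptide bond. The coding bases of that site are shown for the 6 members whose transcripts differed between the groups, 5′ to 3′ on the coding strand, with the codons of the 3 histidines and the glutamate in capitals.
Adamts1: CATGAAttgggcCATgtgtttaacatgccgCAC
Adamts4: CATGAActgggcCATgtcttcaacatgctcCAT
Adamts5: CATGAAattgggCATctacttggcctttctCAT
Adamts8: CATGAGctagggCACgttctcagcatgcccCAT
Adamts10: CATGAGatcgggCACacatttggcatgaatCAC
Adamts15: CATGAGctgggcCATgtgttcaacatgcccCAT
The sequences come from the GENCODE M21 transcripts of the mouse build GRCm38, which is the same assembly as mm10. In each of these genes the site is coded by the end of 1 exon and the start of the next. It spans chr16:85799191-85799545 (minus strand) in Adamts1, chr1:171253210-171253915 (plus strand) in Adamts4 and chr16:85878015-85887826 (minus strand) in Adamts5. It spans chr9:30952721-30953378 (plus strand) in Adamts8, chr17:33538157-33538279 (plus strand) in Adamts10 and chr9:30911255-30911690 (minus strand) in Adamts15.

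Among all 10 members the 33 bases differed at 3 positions for the most alike pair, Adamts4 and Adamts15, and at 16 for the least alike, Adamts9 and Adamts12, with a median of 12 over the 45 pairs. Adamts1 and Adamts5, which are neighbours in the genome, differed at 13 of the 33 bases. The eighth codon of the site, between the capitals, read asparagine in Adamts1, Adamts4, Adamts9 and Adamts15. It read glycine in Adamts2, Adamts5, Adamts7, Adamts10 and Adamts12, and serine in Adamts8. The exon boundary fell after base 10 of the site in Adamts1, Adamts4, Adamts5, Adamts8 and Adamts15 and after base 17 in Adamts2, Adamts7, Adamts9, Adamts10 and Adamts12. This grouping was looked at after the expression values were known and is given as a description of the sequences.

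The comparison asked which ADAMTS transcripts differed between dexamethasone and saline in the injured muscle. Adamts1, Adamts4 and Adamts5, the best known aggrecan- and versican-cutting enzymes, rose 1.73- to 1.95-fold with no overlap between the groups. Adamts8, of the same branch, rose 1.42-fold, while Adamts15 was 1.27-fold lower and Adamts10 1.15-fold lower. Adamts2, Adamts7, Adamts9 and Adamts12 did not pass the test. Thus 6 of the 10 members passed the threshold of 0.05 in limma, adjusted by Benjamini-Hochberg over the whole table, 4 higher and 2 lower. Of all 14911 genes, 48.1% passed, 25.2% higher and 22.9% lower, so the share of members called was near that of all genes. The median log2 fold change of the 10 members was 0.22, beside 0.0071 over all genes. In bulk tissue, more RNA per cell and more cells of the type that makes a transcript cannot be told apart.

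**Figure D1:**
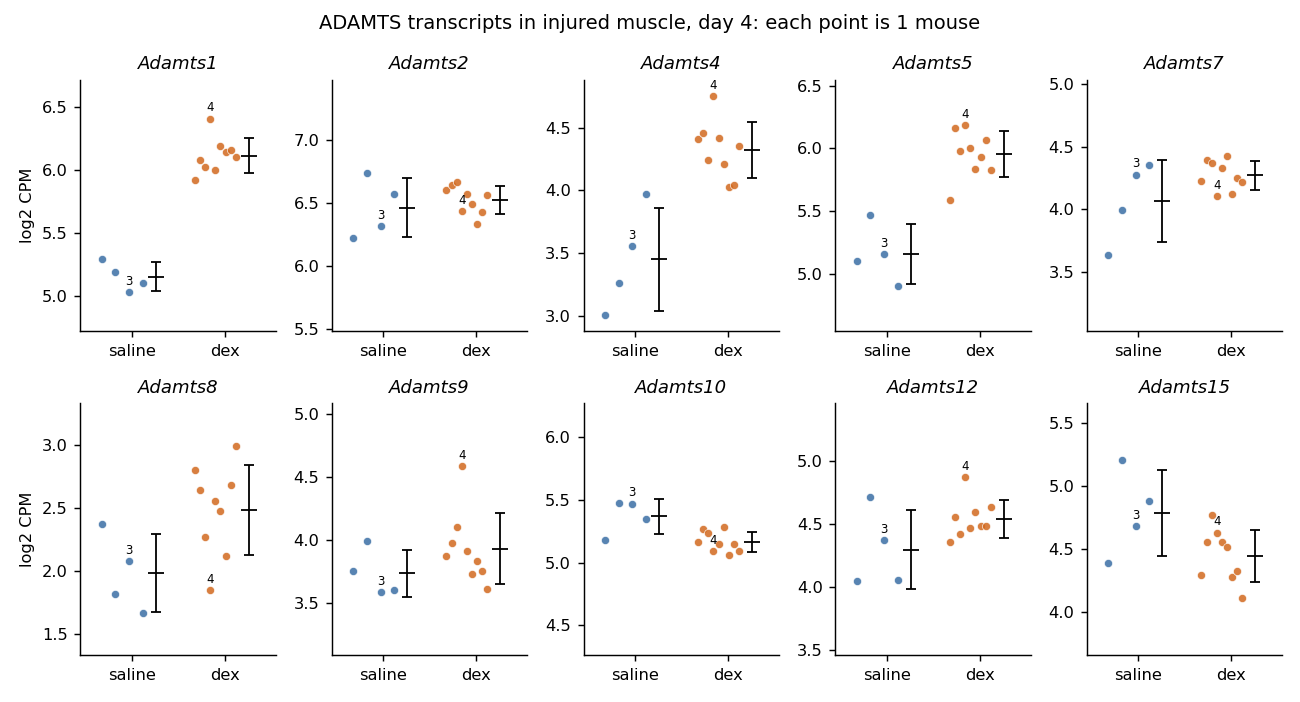
Level of each listed ADAMTS gene in every library, in log2 CPM (log2 of reads scaled to a common library size). Each point is 1 mouse, blue for 4 saline and orange for 9 dexamethasone mice, the bar is the mean with 1 SD, and the numbers 3 and 4 mark saline library 3 and dexamethasone library 4; every panel spans its own range. The groups are apart for Adamts1, Adamts4 and Adamts5 and overlap in the other panels.

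Adamts1 encodes a protease induced in inflammation that cuts versican and aggrecan. Its level was 5.29, 5.19, 5.03 and 5.10 log2 CPM in saline libraries 1, 2, 3 and 5. In dexamethasone libraries it ran from 5.92 over a median of 6.11 to 6.41. Every dexamethasone library was above every saline library, and the saline libraries lay close together. The mean went from 5.15 ± 0.11 (SD, n = 4) to 6.12 ± 0.14 (SD, n = 9). The log2 fold change was 0.96 ± 0.07 (SE), with a limma adjusted p of 2.0e-07.

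Adamts4 encodes aggrecanase-1, whose transcript is raised by inflammatory cytokines in joint tissue. It stood at 3.01, 3.27, 3.55 and 3.97 log2 CPM in saline libraries 1, 2, 3 and 5, and between 4.03 and 4.75 in dexamethasone libraries, with a median of 4.36. The groups did not overlap, but saline library 5 lay just under the lowest dexamethasone library. The saline libraries were more spread than the dexamethasone libraries, with an SD of 0.41 (n = 4) against 0.22 (n = 9). The log2 fold change was 0.87 ± 0.15 (SE; limma adjusted p of 0.00022). With the library mean of the fibre markers as a covariate the log2 fold change was 0.45, with an adjusted p of 0.091, where the adjusted p ranged from 2.9e-05 to 0.091 over all 26 alternatives.

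Adamts5 encodes aggrecanase-2, which also clears versican around myoblasts. Its saline values were 5.10, 5.47, 5.16 and 4.91 log2 CPM in libraries 1, 2, 3 and 5. The 9 dexamethasone values ran from 5.59 over a median of 5.98 to 6.19. All were above saline library 2, the highest of the saline group, and dexamethasone library 1 came nearest to it. Its mean was 0.79 ± 0.10 (SE) higher on the log2 scale, with a limma adjusted p of 2.2e-05.

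Adamts8 encodes a less studied protease of the proteoglycan-cutting branch, and it had the fewest reads of the members. It stood at 2.38, 1.81, 2.08 and 1.67 log2 CPM in saline libraries 1, 2, 3 and 5, and ran from 1.84 over 2.56 to 3.00 in dexamethasone libraries. The groups overlapped, with 6 of 9 dexamethasone libraries above every saline library and library 4 the lowest of the 9. The log2 fold change was 0.50 ± 0.18 (SE; limma adjusted p of 0.034). The call was lost in 7 of the 13 fits that left out 1 library: without saline library 2, 3 or 5 and without dexamethasone library 1, 2, 8 or 9. In those fits the log2 fold change lay between 0.40 and 0.53.

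Adamts9 encodes a protease that is conserved down to worms and is needed for versican turnover in the embryo. Its saline values were 3.76, 3.99, 3.58 and 3.60 log2 CPM in libraries 1, 2, 3 and 5. The dexamethasone values ran from 3.61 over 3.88 to 4.59. The groups overlapped, with 2 of 9 dexamethasone libraries above every saline library, of which library 4 stood far above the rest. Its log2 fold change was 0.20 ± 0.14 (SE; limma adjusted p of 0.25).

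Adamts15 encodes a versican-cutting enzyme expressed in developing muscle. It stood at 4.39, 5.20, 4.68 and 4.88 log2 CPM in saline libraries 1, 2, 3 and 5 and ran from 4.11 over 4.52 to 4.77 in dexamethasone libraries. Saline library 1 lay inside the dexamethasone range, and 4 of 9 dexamethasone libraries were below every saline library. The log2 fold change was -0.34 ± 0.13 (SE; limma adjusted p of 0.042). Without saline library 2, the highest, it was -0.20 with an adjusted p of 0.21, and over the 26 alternatives the adjusted p ranged from 0.0073 to 0.41. The call was lost in 7 of the 13 fits that left out 1 library, which were those without saline library 2, 3 or 5 and without dexamethasone library 1, 7, 8 or 9. With the mean of the fibroblast markers as a covariate the log2 fold change was -0.15, and with that of the fibre markers it was -0.67.

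Adamts10 encodes a protease with little cutting activity of its own that supports fibrillin-1 microfibrils. It stood at 5.18, 5.47, 5.47 and 5.35 log2 CPM in saline libraries 1, 2, 3 and 5 and ran from 5.06 over 5.15 to 5.29 in dexamethasone libraries. Saline library 1 was within the dexamethasone range, and 6 of 9 dexamethasone libraries were below every saline library. The log2 fold change was -0.20 ± 0.06 (SE; limma adjusted p of 0.012). Leaving out saline library 2 or 3 gave -0.17 in each case, with adjusted p of 0.055 and 0.053, inside a range from 0.0019 to 0.098 over the 26 alternatives.

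Adamts2 encodes the main amino-terminal propeptidase of type I procollagen. It stood at 6.22, 6.74, 6.32 and 6.57 log2 CPM in saline libraries 1, 2, 3 and 5, with all 9 dexamethasone libraries between 6.33 and 6.66. The dexamethasone libraries lay wholly within the saline range. The means differed by 0.06 ± 0.08 (SE) on the log2 scale, with a limma adjusted p of 0.56.

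Adamts7 and Adamts12 are close paralogues that carry a mucin-like stretch. Adamts7 stood at 3.64, 4.00, 4.28 and 4.35 log2 CPM in saline libraries 1, 2, 3 and 5 and from 4.11 to 4.42 under dexamethasone (log2 fold change 0.20 ± 0.11, SE; limma adjusted p of 0.12). Adamts12 stood at 4.05, 4.71, 4.38 and 4.06 in the same saline libraries and from 4.36 to 4.87 under dexamethasone (log2 fold change 0.24 ± 0.11, SE; limma adjusted p of 0.084). In both, the saline libraries were the more widely spread, and at least 1 of them lay above the dexamethasone median. Without saline library 5, Adamts7 had a log2 fold change of 0.30 and an adjusted p of 0.031. Without saline library 2, Adamts12 had a log2 fold change of 0.38 and an adjusted p of 0.0062.

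In 3 of the 10 members, Adamts1, Adamts4 and Adamts5, the groups did not overlap, and in each dexamethasone was the higher. Over all genes the groups did not overlap in 25.8%, and dexamethasone was the higher in 12.9%. The summed level of the 10 members was 261 to 340.0 CPM in saline libraries and 340.0 to 404 CPM in dexamethasone libraries, so the groups met end to end. In the authors' deposited table the same 6 members had an adjusted p under 0.05.

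Levels were compared between members only per length, as log2 CPM per kilobase of exon sequence. In saline libraries Adamts2 was the most abundant member at 3.24 ± 0.24 (SD, n = 4), followed by Adamts1 at 2.75 ± 0.11 and Adamts10 at 2.32 ± 0.14, each apart from the next. Adamts5, Adamts7, Adamts15, Adamts4 and Adamts12 followed, from 1.73 down to 0.85, and each of these overlapped with its neighbour in the order. Adamts9 and Adamts8 were the lowest at -0.18 ± 0.19 and -0.22 ± 0.31, and overlapped with each other. In dexamethasone libraries Adamts1 stood first at 3.71 ± 0.14 (SD, n = 9), above Adamts2 at 3.30 ± 0.11, with no overlap between these 2 genes in either group. Adamts5 came next at 2.52 ± 0.18, overlapping with Adamts10 at 2.12 ± 0.08, which overlapped with Adamts4 at 2.06 ± 0.22. Adamts7 followed at 1.62 ± 0.11 and lay above Adamts12 without overlap. Adamts12 and Adamts15, at 1.09 and 1.07, overlapped, as did the lowest pair, Adamts8 at 0.28 and Adamts9 at 0.02.

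Among the 8 other measured ADAMTS genes, 3 rose, 3 fell and 2 did not pass the test (limma adjusted p of 0.05). Of all genes, 25.2% were higher and 22.9% lower. Adamts3 and Adamts14 share the procollagen-trimming role of Adamts2, and both rose while Adamts2 did not pass. Adamts14 stood at 4.53, 4.76, 4.77 and 4.87 log2 CPM in saline libraries 1, 2, 3 and 5 and from 5.15 to 5.56 under dexamethasone (log2 fold change 0.68 ± 0.08, SE). Adamts3 had a log2 fold change of 0.78 ± 0.13 (SE) and 77 to 227 reads in a library. Adamts6, the closest paralogue of Adamts10, had a log2 fold change of 0.95 ± 0.13 (SE). The groups did not overlap for any of these 3 genes, beside 12.9% of all genes with dexamethasone the higher. Whether the change of Adamts6 differed from that of Adamts10, or that of Adamts3 and Adamts14 from that of Adamts2, was not tested.

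Adamts19 fell by 1.22 ± 0.25 (SE) on the log2 scale, from 54 to 107 reads in saline libraries to 18 to 50 in dexamethasone libraries. Adamts17 and Adamts20, singled out after their values were seen, fell by 1.56 ± 0.32 and 0.53 ± 0.12 (SE) on the log2 scale. Adamts17 was at -1.41 log2 CPM in dexamethasone library 4, while the other dexamethasone libraries lay between 0.16 and 0.90. Adamts17 and Adamts19 were lower in every dexamethasone library than in any saline library, at 10 to 140 and 18 to 107 reads in a library. Over all genes the groups did not overlap in 25.8%, in either direction. Over all 18 measured ADAMTS proteases, 7 were higher, 5 lower and 6 not past the threshold. Of all 14911 genes, 48.1% passed, 25.2% higher and 22.9% lower.

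**Figure D2:**
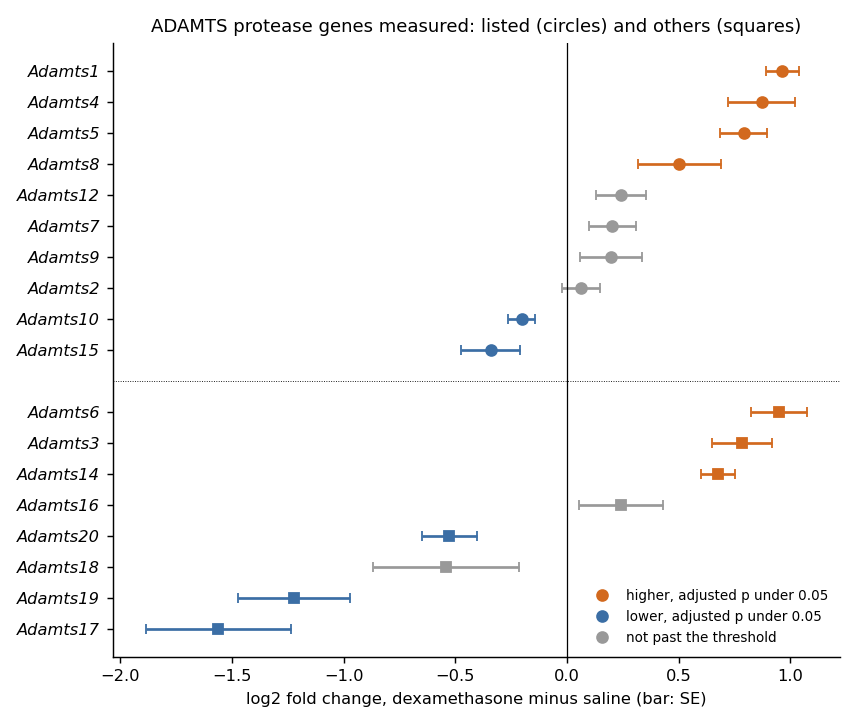
Log2 fold change of each measured ADAMTS protease, dexamethasone minus saline, with its standard error. Circles are the 10 listed genes and squares the other 8; orange and blue mark genes higher and lower at a limma adjusted p of 0.05, and grey those that did not pass. The listed genes run from 0.96 for Adamts1 to -0.34 for Adamts15, and the lowest of all is Adamts17 at -1.56.

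Adamts1 and Adamts5 lie on the same strand of chromosome 16, Adamts1 at 85793827 to 85803113 and Adamts5 at 85858157 to 85901125 (minus strand, GRCm38), with 55043 bases between them. Adamts15 (chromosome 9, 30899155 to 30922452, minus strand) and Adamts8 (30942562 to 30963838, plus strand) also lie side by side, 20109 bases apart and pointing away from each other. The members of the first pair both rose, whereas in the second pair Adamts8 rose and Adamts15 fell. A ratio of 2 genes within a library does not depend on how the library was scaled, so 4 ratios between related members were tested. Each test was an exact, two-sided permutation of all 715 regroupings into 4 and 9 libraries, with Benjamini-Hochberg adjustment over the 4 ratios.

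The log2 difference Adamts8 minus Adamts15 was -2.01, -3.39, -2.60 and -3.21 in saline libraries 1, 2, 3 and 5 and ran from -2.78 over -1.997 to -1.11 in dexamethasone libraries. It was 0.84 higher in dexamethasone on average, with 5 of 9 libraries above every saline library, an exact permutation p of 0.036 and an adjusted p of 0.15. Saline library 1, with the highest Adamts8 and the lowest Adamts15 of its group, lay in the middle of the dexamethasone libraries. The difference was 0.65 to 1.11 when each library was left out in turn.

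The log2 difference Adamts1 minus Adamts5 was 0.17 higher in dexamethasone (exact permutation p of 0.15, adjusted 0.31), with values from -0.29 to 0.20 in saline and from -0.07 to 0.36 in dexamethasone libraries. That of Adamts4 minus Adamts5 was 0.08 higher (exact permutation p of 0.74, adjusted 0.84). That of Adamts7 minus Adamts12 was -0.04 (exact permutation p of 0.84, adjusted 0.84). None of the 4 ratios passed after adjustment. For Adamts4 minus Adamts5 the saline libraries ran from -2.21 to -0.93, a wider range than the -2.03 to -1.18 of the dexamethasone libraries. Leaving out each library in turn moved that difference between -0.09 and 0.34.

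**Figure D3:**
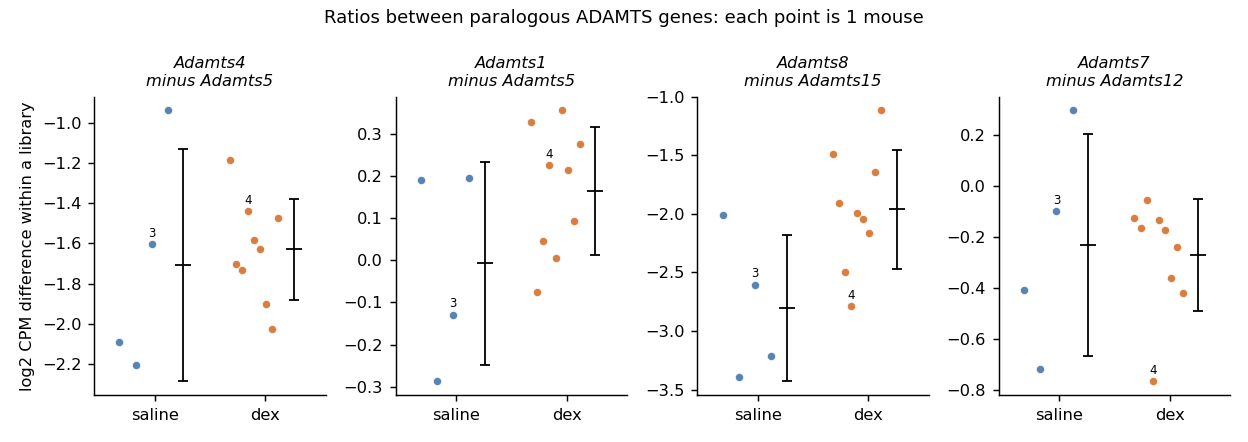
Difference in log2 CPM between 2 related ADAMTS genes within each library. Each point is 1 mouse, blue for 4 saline and orange for 9 dexamethasone mice, the bar is the mean with 1 SD, and 3 and 4 mark saline library 3 and dexamethasone library 4; panels have their own ranges. The groups overlap in all 4 panels, and the largest shift, 0.84, is that of Adamts8 minus Adamts15.

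The members were then compared among themselves over the 9 dexamethasone libraries, where the group difference does not enter. Of 45 pairs, 1 passed an exact permutation of the pairings after adjustment over the 45. Adamts7 and Adamts10 had a Pearson r of 0.92 (exact permutation p of 0.00050, adjusted 0.022) and a Spearman rho of 0.92 (exact permutation p of 0.0013, adjusted 0.059). Without dexamethasone libraries 6 and 2, the farthest from the median of Adamts7, r was 0.86. With each library centred on its median no pair passed, the smallest adjusted exact permutation p being 0.052. No pair passed either without dexamethasone library 1, 2, 3, 6 or 7, and 2 passed without library 8 or 9.

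Adamts1 and Adamts12 had an r of 0.90 (exact permutation p of 0.0024, adjusted 0.054) and a rho of 0.78 (exact permutation p of 0.017, adjusted 0.26), and r was 0.50 without libraries 4 and 1. Adamts8 and Adamts9 had the lowest r of all pairs, -0.77, with an adjusted exact permutation p of 0.19. The r of 0.70 between Adamts4 and Adamts9 was 0.24 without library 4, so it rested on that library. The r of 0.59 between the neighbours Adamts1 and Adamts5 became -0.31 without libraries 4 and 1 and rested on these. At an unadjusted exact permutation p under 0.05 there were 5 pairs. Dexamethasone library 4 was the highest of the 9 for 5 members (Adamts1, Adamts4, Adamts5, Adamts9 and Adamts12) and the lowest for 2 (Adamts7 and Adamts8).

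**Figure D4:**
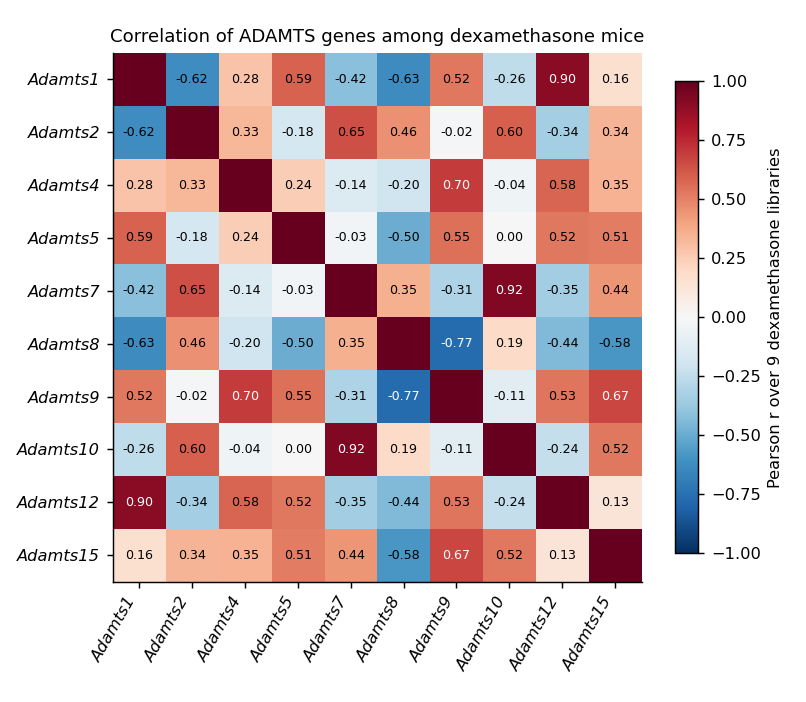
Pearson r of log2 CPM between each pair of listed ADAMTS genes over the 9 dexamethasone libraries, from blue (negative) to red (positive). The strongest pairs are Adamts7 with Adamts10 at 0.92 and Adamts1 with Adamts12 at 0.90, and the most negative is Adamts8 with Adamts9 at -0.77.

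Over the same 9 libraries, the genes most like the 3 members of smallest adjusted p were sought among 12266 genes. These averaged 1 log2 CPM or more, with predicted genes, Riken clones and pseudogenes left out. Such r values are the highest of many and are given as a description. For Adamts1 they were Klf6, a zinc finger transcription factor (r = 0.97), Klhl38 (0.97) and Mocs1, an enzyme of molybdenum cofactor synthesis (0.96). For Adamts5 they were Prex2, an exchange factor for Rac (0.96), Rac1, a small GTPase of cell movement (0.95), and Bmp2k (0.95). For Adamts4 they were Vcan, which encodes versican (0.97), Loxl3, a lysyl oxidase that cross-links matrix (0.97), and Bmper, a secreted binder of bone morphogenetic proteins (0.97). Without dexamethasone library 4, r was 0.94 for Adamts4 with Vcan and 0.93 for Adamts1 with Klf6. The libraries share their depth and tissue makeup, and r was not adjusted for either.

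The genes around the proteases were described by lists. Of 76 measured genes of 8 such lists, 41 were higher and 5 lower (limma adjusted p of 0.05), where 25.2% of all genes were higher and 22.9% lower. The counts of each list are set beside those shares as a description only. The lists were chosen with earlier results of these data known, so an excess over the shares is no test. Of the proteoglycan and glycoprotein substrates 9 of 16 were higher, while 4 of 6 fibrillar procollagens and 3 of 4 tissue inhibitors of metalloproteinases (Timp2, Timp3 and Timp4) did not pass.

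Of 16 proteoglycan and glycoprotein substrates, 9 were higher and none lower, with a median log2 fold change of 0.29 beside 0.0071 over all genes. Vcan, whose core protein is cut by Adamts1, Adamts4, Adamts5, Adamts9 and Adamts15, rose 2.46-fold, from 6.17 ± 0.20 (SD, n = 4) to 7.46 ± 0.34 log2 CPM (SD, n = 9). Thbs1, which encodes thrombospondin-1, a substrate of Adamts1, rose 5.38-fold. Tfpi2, a protease inhibitor that Adamts1 can cut, rose 1.74-fold. Ncan also passed, at 0 to 1 reads in saline libraries and 2 to 17 in dexamethasone libraries. Aggrecan (Acan), the cartilage substrate from which the aggrecanases take their name, had only 7 to 81 reads in saline and 7 to 37 in dexamethasone libraries (log2 fold change -0.41 ± 0.55, SE; limma adjusted p of 0.57).

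Of 6 fibrillar procollagen substrates of Adamts2, Adamts3 and Adamts14, 2 were higher and none lower, with a median of -0.15. These were Col5a1 and Col5a2, of type V collagen, with log2 fold changes of 0.47 ± 0.12 and 0.37 ± 0.10 (SE). Col1a1 had a log2 fold change of -0.15 ± 0.15 and Col3a1 of -0.14 ± 0.13 (SE), and neither passed (limma adjusted p of 0.41 and 0.40).

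Of 10 microfibril partners, which include ligands of Adamts10 and Adamts6, 6 were higher and 2 lower, with a median of 0.40. Ltbp2, a latent TGF-beta binding protein of elastic fibres, rose 3.95-fold and Fbn1, which encodes fibrillin-1, rose 1.71-fold. Mfap2, a small microfibril glycoprotein, was 2.03-fold lower and Ltbp4 1.36-fold lower. Of the 7 ADAMTS-like proteins, which have the ancillary domains but no protease, 3 were higher and none lower, with a median of 0.18. Adamtsl2 rose 2.54-fold, Adamtsl3 1.90-fold and Adamtsl5 1.19-fold.

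Of 9 measured inhibitors, cofactors and clearance receptors, 4 were higher and none lower, with a median of -0.01. Timp3, the tissue inhibitor known to block Adamts4 and Adamts5 most tightly, stood at 7.45 ± 0.19 (SD, n = 4) and 7.43 ± 0.10 log2 CPM (SD, n = 9), a log2 fold change of -0.02 ± 0.07 (SE; limma adjusted p of 0.82). Timp1, an inhibitor mainly of matrix metalloproteinases, rose 3.35-fold. Lrp1, the endocytic receptor that takes up Adamts4 and Adamts5, rose 1.59-fold. Sdc4, a cell surface heparan sulfate proteoglycan, rose 1.61-fold, and Fbln1, a cofactor of Adamts1, had a log2 fold change of 0.48 ± 0.07 (SE).

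Of 9 maturation and secretion genes, 5 were higher and none lower, with a median of 0.18. Pcsk5, a convertase of the furin family, rose 3.84-fold and Furin itself 1.36-fold. Hsp90b1, a chaperone of the endoplasmic reticulum, rose 1.43-fold, and B3glct, which extends the fucose on thrombospondin repeats, 1.23-fold. Of 11 measured cytokine inducers and their receptors, 9 were higher and none lower, with a median of 0.79. Tnfrsf1a, a receptor of tumour necrosis factor, rose 1.73-fold, Il1r1, the signalling receptor of interleukin-1, 1.89-fold, and Osmr, the oncostatin M receptor, 1.76-fold. Il6 had 3 to 5 reads in saline and 10 to 34 in dexamethasone libraries. Il1b, named after its values were seen, had 18 to 64 and 63 to 429 reads.

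**Figure D5:**
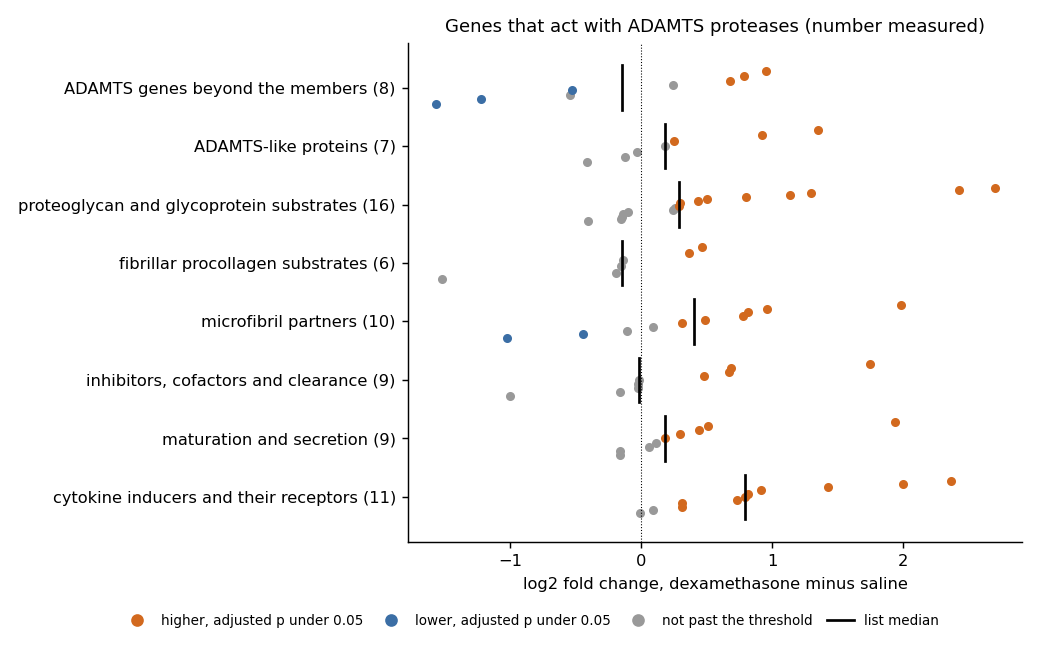
Log2 fold change, dexamethasone minus saline, of each measured gene of 8 lists around the ADAMTS proteases, with the number measured in brackets. Points are genes, orange and blue for higher and lower at a limma adjusted p of 0.05 and grey for not past it, and black bars are list medians. The median is highest for the cytokine inducers and their receptors at 0.79, and blue points occur only among the further ADAMTS genes and the microfibril partners.

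Markers of the cell types in whole muscle were set beside these results. Their counts are read beside all genes, of which 25.2% were higher and 22.9% lower. Of 12 muscle fibre markers, 4 were lower, none higher and 8 did not pass. Their summed level was 117213 to 177803 CPM in saline and 77669 to 115228 CPM in dexamethasone libraries, without overlap. The sum weighs Acta1 and Myh4 most, the 2 highest of the 12, and neither passed (limma adjusted p of 0.067 and 0.084). With the mean of the 12 fibre markers as a covariate, 2 members were called higher in place of 4, Adamts1 and Adamts5, and 2 lower. Adamts4 then had a smaller log2 fold change, 0.45 ± 0.18 (SE; limma adjusted p of 0.091). Adamts8 had a larger one, 0.70 ± 0.28 (SE), against 0.50 ± 0.18 without the covariate, and lost its call at a limma adjusted p of 0.081. The fibre markers themselves differed between the groups, so this fit cannot fully separate them from group. Of 10 fibroblast and fibro-adipogenic progenitor markers, 1 was higher and 4 lower, with a median log2 fold change of -0.11. Their sums were 2476 to 3282 and 2983 to 3412 CPM. The sum weighs Gsn most, the 1 marker called higher, with means of 10.2 in saline and 10.8 log2 CPM in dexamethasone. With the mean of the 10 markers as a covariate no member was called lower, and Adamts12 was called higher at a log2 fold change of 0.41. Adamts8 lost its call in that fit, at 0.45 ± 0.23 (SE; limma adjusted p of 0.13). Some fibroblast markers differed between the groups, so this fit too cannot fully separate them from group.

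Of 6 macrophage markers, 3 were higher and 1 lower, with sums of 579 to 858 and 841 to 1025 CPM. The counts here too stand beside 25.2% of all genes higher and 22.9% lower. Of 7 smooth muscle and pericyte markers, 2 were higher and none lower. Of 7 endothelial markers, 1 was lower and none higher. Of 5 measured cartilage markers, 1 was higher (Comp), with a median log2 fold change of -0.41 and sums of 33.5 to 61.9 and 35.5 to 49.5 CPM. Col2a1, a cartilage marker that did not pass, had 15 to 418 reads in saline and 10 to 28 in dexamethasone libraries. Of 5 tendon markers, 1 was higher and 2 lower. Of 6 myoblast markers, 1 was higher. Every measured marker had at least 7 reads in each library, the lowest being Acan. The part of macrophages, smooth muscle, endothelium, cartilage, tendon and myoblasts in the changes of the ADAMTS genes was not tested.

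The promoter of Adamts1, the member with the smallest adjusted p, is shown because it was the only called member in the RefSeq promoter table used, which held 4 of the 10. It is the 250 bases before the start at chr16:85803114-85803363 (GRCm38.p6, minus strand), 5′ to 3′, with a match to the TATA box in capitals.
Adamts1 promoter: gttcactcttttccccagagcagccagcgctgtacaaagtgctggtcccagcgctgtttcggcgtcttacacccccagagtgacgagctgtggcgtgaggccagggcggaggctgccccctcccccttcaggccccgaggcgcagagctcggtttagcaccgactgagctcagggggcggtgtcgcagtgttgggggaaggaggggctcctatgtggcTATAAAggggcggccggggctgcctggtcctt
The window had 65.6% G and C, and the TATA box match lay 32 to 27 bases before the start. TATAAA occurred on either strand in 12.4% of 32851 promoter windows of the same length, and not in those of Adamts2, Adamts9 and Adamts12. Also searched on both strands were TGANTCA (AP-1, in 6.75% of windows), AGAACANNNTGTNCT (glucocorticoid response element, 0.037%), GGGNNTTTCC (NF-kappaB, 1.41%), TTCNNNGAA (STAT, 7.02%) and TTGCNNCAA (C/EBP, 1.74%). None of these letters was found in the windows of the 4 members.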

How the data were processed

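Whole injured hamstring from 13 mice was profiled by stranded sequencing of polyadenylated RNA, per the labels' protocols. Reads were counted with featureCounts 2.0.1 on mm10 and handled with limma 3.50.1, per the submitters' processing notes. The aligner, the annotation, the strand setting of the counting and the filter on low expression are, for this series, not given in the sources used here. Each mouse has a column of log2 CPM that the authors deposited, beside their own log2 fold changes, p-values and t and B statistics, which are scores. Adding 0.5 to the reads of a gene, dividing by a scaled library total in CPM and taking log2 gives the deposited values: undoing this returned a whole number of reads, to a tolerance of 0.01, for 100% of them. A fold change of a low gene therefore depends on that 0.5. The table normalised without the excluded saline mouse (14911 genes) was used. The other table (14970 genes) served as an alternative, and its 1 column of the excluded mouse was not used.

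Groups came from the labels. A linear model on group was fitted to all genes in R 4.3.3 with limma 3.58.1, using the intensity trend in the moderation. Tests were two-sided, adjusted by Benjamini-Hochberg, at a threshold of 0.05. Adjusted p-values in the text are from that fit unless a permutation test is named. Ratios used exact permutation tests over 715 regroupings of the libraries, whose smallest p is 0.0028, and correlations used exact permutations of the pairings of 9 libraries. Lists are described by counts and medians, with no list test. The members and the lists were chosen with earlier results of these data known. Named genes were all members, at most 4 called genes a list by smallest adjusted p, any list gene said not to pass (Acan, Col1a1, Col3a1 and Timp3, chosen with their values seen), and the 3 genes of highest r to each of the 3 called members of smallest adjusted p, without predicted genes, Riken clones and pseudogenes. Among the cell type markers, Acta1, Myh4, Gsn, Comp and Col2a1 were named with their values seen. Exon lengths, strands, transcripts and positions of the catalytic site were those of GENCODE M21. Starts and ends of whole genes were those of RefSeq.

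On simulated counts over 14911 genes, the fit called 98 of 100 genes given a log2 change of 1 and 81 of 100 given 0.5. Of its 186 calls, 7 were false. The changed genes averaged 1 log2 CPM or more, and all other genes were left unchanged. In the real comparison 48.1% of genes passed, so these shares do not carry over to it. Among the 42 pairs of libraries of a group, reads differed with a chi-square per gene of 7.21 or more, and no library was merged with another. Alternatives tried were the other table, log2 of CPM plus 1, a filter at a mean log2 CPM of 1, median centring, quantile normalisation, moderation without the trend or robust, voom on recovered reads, the mouse number as a block, marker means as covariates, and libraries left out. Figures were drawn with matplotlib 3.10.9.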

Additional observations from a re-analysis of the deposited data

Results flagged for a closer look

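Adamts9 stood at 4.59 log2 CPM in dexamethasone library 4, far above the other 8 dexamethasone libraries, which lay between 3.61 and 4.10. Its gap to the nearest library was 0.498 of the range of the 9, against a critical value of 0.493 in Dixon's test. The test was run in 28 groups of values, and chance gives such a result in about 1 of 20.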

How the results depend on the processing

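No called value changed sign under any of the 26 alternatives. Of uncalled members, Adamts2 and Adamts7 had log2 fold changes of -0.12 and -0.16 with fibre markers as a covariate. Adamts1 (log2 fold change 0.86 to 1.06) and Adamts5 (0.71 to 0.95) were called higher in all 26, and Adamts4 (0.45 to 1.05) in all but the fit with fibre markers as a covariate. Adamts8 lost its call in 9, Adamts10 in 6 and Adamts15 in 11, and Adamts2 and Adamts9 were never called. Members called higher numbered 4, but 2 with the fibre covariate and 5 without saline library 3 and dexamethasone library 4 together, where Adamts7 passed at an adjusted p of 0.04996. Members called lower numbered 2, but 1 without the trend, 1 without saline library 3 and dexamethasone library 4 together, 0 with the fibroblast covariate, and 0 in the 8 libraries with shared mouse numbers, with or without the replicate block. Genes called numbered 7173, and 3762 with the fibre covariate. Correlated member pairs numbered 1, and 0 after median centring. With each library left out in turn, members called numbered 3 to 6 (3 without saline library 3), higher 3 to 4 and lower 0 to 2, genes called 6306 to 7173, pathway genes called 43 to 47, members without overlap 3 to 4, and correlated pairs 0 to 2.

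Mouse numbers 1, 2, 3 and 5 occur in both groups. Deviations of same-numbered mice had correlations over genes of -0.02, -0.09, -0.05 and 0.20. These lay within the range of differently numbered mice, -0.30 to 0.32. So few values cannot settle whether the numbers pair the mice, and the main fit was unpaired. The replicate block gave 5959 called genes in those 8 libraries, against 6124 without it. Median centring gave 3449 higher and 3710 lower genes, and quantile normalisation 3493 and 3736, against 3760 and 3413. Adamts8 had the fewest reads of the members and the largest error. With 4 saline mice small changes such as those of Adamts7 and Adamts12 may be missed.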
